A study of Mus musculus with 13 samples.

Results

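The citrate cycle enzymes described here are 9 nuclear-encoded enzymes or subunits of the mitochondrial matrix: Cs, Idh3a, Idh3b, Idh3g, Ogdh, Dlst, Suclg1, Fh1 and Mdh2. Their probes were found by matching the RefSeq accession that the array design gives each probe to a gene symbol. All 9 genes were on the array, out of 19748 genes named in this way. They were read by 11 probes, 1 for each gene except Ogdh, which had 3. Every member passed the filter on dim probes, and every one of the 11 probes was well above background on each array where its spot was not discarded. No spot of any array was saturated.

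The series measured total RNA of white (WAT) and brown (BAT) adipose tissue of male C57BL/6J mice on one-colour arrays. Fv2E-PERK is a transgene whose product carries the kinase domain of PERK fused to a domain that the small molecule AP20187 joins in pairs, so that the injected ligand switches on the integrated stress response without stress in the endoplasmic reticulum. The series writes the transgene with the prefix mAP and does not spell out its promoter. The groups were WAT of untreated wild-type mice (3 arrays), vehicle-treated Fv2E-PERK WAT (2 arrays), Fv2E-PERK WAT given AP20187 (3 arrays), Fv2E-PERK BAT given vehicle (2 arrays) and Fv2E-PERK BAT given AP20187 (2 arrays). AP20187 was injected into the abdomen at 100 ng per g, and vehicle was a mix of ethanol, PEG-400 and Tween-20 in water; tissue was taken 12 h later. The protocol names muscles as the tissue collected, whereas the sample labels name WAT or BAT. No wild-type mice given AP20187 and no wild-type BAT were analysed here, so an effect of the ligand itself could not be separated from that of the transgene's product. The labels give no ages and do not say that the arrays of a group came from separate animals, so the p-values below measure only the spread between these arrays, which may be technical. A further array was left out of every group because its title and source name give different tissues.

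The citrate cycle takes the acetyl group of acetyl-CoA, made from pyruvate or from fatty acids, and oxidises it to carbon dioxide in the mitochondrial matrix. Its dehydrogenases pass electrons to NAD+ or to ubiquinone, and the respiratory chain uses these to build the proton gradient that drives ATP synthesis. In brown adipocytes the uncoupling protein Ucp1 lets protons back across the inner membrane and releases this energy as heat. White adipocytes hold few mitochondria, and citrate that leaves their matrix is used for fatty acid synthesis in the cytosol.

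Some properties of the arrays bear on the values below. The 3 slides did not hold the tissues evenly: all BAT arrays were on slide 3 and all WAT arrays on slides 1 and 2, so that tissue and slide cannot be told apart. Spots well above background made up 46.4% to 48.99% of each BAT array, 48.98% to 51.5% of each WAT array given AP20187 and 57.9% to 64.0% of each other WAT array. Correlations between arrays of a group over all features were 0.974 to 0.992 in 4 of the groups, but 0.884 to 0.941 among the WAT arrays given AP20187. The array WAT AP20187 1 carried transcripts of the epididymis, a gland that lies beside gonadal fat. The mean level of 10 epididymal markers was 0.35 on WAT AP20187 2 and -6.02 to -3.70 on 6 further WAT arrays. On WAT AP20187 1 it was 8.58, over the 8 of them measured there. On wild-type WAT 3 the epididymal marker Crisp1 was at 6.68. There 4 of the 10 markers were well above background, as on wild-type WAT 1. Skeletal muscle markers were present in BAT, with a mean level over 11 genes of 0.94 on BAT vehicle 2, 5.22 on BAT vehicle 3, 4.41 on BAT AP20187 1 and 3.48 on BAT AP20187 2, against -3.33 to -0.82 on the WAT arrays. The tissue labels held up against the defining brown fat gene Ucp1, whose level was 9.87 to 10.63 on the 4 BAT arrays and -7.23 to -3.41 on the 8 WAT arrays.

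A level here is the log2 of a probe's processed signal minus the 75th percentile of that array, so a level of 8 lies 8 doublings above that percentile. Levels of different probes were not set against each other, because probes differ in brightness for reasons other than the amount of transcript. A gene was called different between 2 groups when limma's moderated test gave an adjusted p (Benjamini-Hochberg over 28060 features) under 0.05. In bulk tissue, fewer cells of a type and less RNA per cell cannot be told apart.

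The promoters of Ogdh, Mdh2 and Idh3g are shown because the members moved together between the tissues, and because these windows hold motifs of factors known to bind near genes of mitochondrial proteins or genes of the stress response. Sequences are from RefSeq (build GRCm38.p6), read 5′ to 3′ on the gene's own strand over the 140 bases before an annotated start, with the motif in capitals. They were taken from chr11:6291457-6291596 (plus strand) for Ogdh, chr5:135778509-135778648 (plus strand) for Mdh2 and chrX:73786898-73787037 (minus strand) for Idh3g.
Ogdh, cyclic AMP response element: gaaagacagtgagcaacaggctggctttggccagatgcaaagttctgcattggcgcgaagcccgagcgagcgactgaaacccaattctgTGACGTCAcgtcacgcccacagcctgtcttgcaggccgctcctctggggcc
Mdh2, cyclic AMP response element: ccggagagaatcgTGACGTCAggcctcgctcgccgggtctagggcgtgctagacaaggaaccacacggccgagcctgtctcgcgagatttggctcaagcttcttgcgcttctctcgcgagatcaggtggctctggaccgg
Idh3g, ETS motif: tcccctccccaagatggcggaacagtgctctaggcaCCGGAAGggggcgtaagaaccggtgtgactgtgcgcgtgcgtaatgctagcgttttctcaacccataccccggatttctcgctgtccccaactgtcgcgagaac

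Windows of 300 bases, 250 before to 50 after a start, were held for 8 of the 9 members, and Idh3a had none. The 8 genes had 13 annotated starts, of which 6 belonged to Ogdh. Both strands were searched. The cyclic AMP response element TGACGTCA was in windows of 2 of the 8 genes (Mdh2 and Ogdh) against 2.03% of all 27025 genes with windows (1.79% of all 32851 windows). The ETS motif CCGGAAG was in windows of 3 of the 8 (Dlst, Idh3b and Idh3g), against 9.93% of all genes (8.86% of windows). The half-site of oestrogen-related receptors, AAGGTCA, was in a window of 1 of the 8 (another start of Ogdh), against 5.38% of all genes (4.72% of windows). The NRF1 motif was in none of the 8, against 5.19% of all genes (4.6% of windows). No motif overlapped another in the printed windows. A match describes the letters of a window and says nothing of binding.

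Brown fat of vehicle mice held more transcript of all 9 enzymes than white fat of vehicle mice, by 4.00-fold for Mdh2 to 9.15-fold for Suclg1 with a median of 6.71-fold. The enzymes of the steps from isocitrate to succinate (Idh3a, Idh3b, Idh3g, Ogdh, Dlst and Suclg1) had the 6 largest differences, and Cs, Fh1 and Mdh2 the 3 smallest. All 9 were called higher, where 13.1% of all features were called higher and 8.73% lower. The median log2 difference of the 9 was 2.75, against 0.09 over all features. Among 1378 other features within the brightness range of the members, 534 were called higher and 40 lower, with a median of 0.56. The comparison had 2 arrays on each side.

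Cs makes citrate from acetyl-CoA and oxaloacetate, the entry step of the cycle. Its levels were 7.80 and 7.67 on the 2 WAT vehicle arrays and 10.17 and 9.92 on the 2 BAT vehicle arrays. Both BAT arrays lay above both WAT arrays, a log2 difference of 2.31 ± 0.36 (SE), or 4.95-fold (95% interval 2.82 to 8.68), with a limma adjusted p of 0.0028.

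Idh3a, Idh3b and Idh3g encode the catalytic and the 2 other subunits of the NAD+-dependent isocitrate dehydrogenase, which forms 2-oxoglutarate. Idh3a was at 5.51 and 5.21 in vehicle WAT and at 8.28 on both BAT vehicle arrays. Idh3b was at 5.26 and 4.85 in vehicle WAT and at 7.91 and 7.45 in vehicle BAT. Idh3g was at 6.36 and 6.34 in vehicle WAT and at 9.43 and 8.86 in vehicle BAT. The 3 subunits of this complex thus showed differences of like size, with each BAT array above each WAT array. The log2 differences were 2.92 ± 0.39 (SE) for Idh3a, 2.63 ± 0.41 for Idh3b and 2.80 ± 0.32 for Idh3g, with limma adjusted p-values of 0.0016, 0.0030 and 0.00089.

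Ogdh and Dlst encode the E1 and E2 components of the 2-oxoglutarate dehydrogenase complex, which forms succinyl-CoA. The Ogdh probe of the highest mean level (A_55_P2006280) was at 5.93 and 5.88 in vehicle WAT and at 9.06 and 8.71 in vehicle BAT. Dlst was at 4.73 and 4.72 in vehicle WAT and at 7.62 and 7.32 in vehicle BAT. Both genes again had no overlap between the tissues, and their white fat levels were nearly equal on the 2 arrays. The log2 difference was 2.98 ± 0.23 (SE) for Ogdh, with a limma adjusted p of 0.00028, and 2.75 ± 0.31 for Dlst, with an adjusted p of 0.00080.

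Of the 3 probes of Ogdh, 2 gave this picture and 1 did not. Probe A_55_P2006281 was at 5.98 and 5.65 in vehicle WAT and at 8.76 and 8.56 in vehicle BAT, a log2 difference of 2.84. Probe A_55_P2006277, the dimmest of the 11, was at 1.73 and 2.02 in vehicle WAT and at 2.47 and 2.19 in vehicle BAT. Its log2 difference was 0.45 (95% interval -0.21 to 1.12), with a limma adjusted p of 0.31 in the fit with every probe as its own feature. That interval lies wholly below the intervals of the other 2 probes, though the difference between probes was not tested. All 3 probes carry the same RefSeq accession, and the files used here give neither their sequences nor their positions, so which part or isoform of the transcript each reads is not known here.

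Suclg1 encodes the alpha subunit of succinyl-CoA ligase, the step that forms ATP or GTP directly. It was at 5.03 and 4.90 in vehicle WAT and at 8.28 and 8.04 in vehicle BAT. This was the largest of the 9 differences, at 3.19 ± 0.28 (SE) on the log2 scale, or 9.15-fold (95% interval 5.91 to 14.2), with a limma adjusted p of 0.00028.

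Fh1, fumarase, hydrates fumarate to malate, and Mdh2, the mitochondrial malate dehydrogenase, regenerates oxaloacetate. Fh1 was at 5.30 and 5.41 in vehicle WAT and at 8.14 and 7.57 in vehicle BAT. Mdh2 was at 8.06 and 8.12 in vehicle WAT and at 10.31 and 9.87 in vehicle BAT. The log2 differences were 2.50 ± 0.33 (SE) and 2.0 ± 0.28, with limma adjusted p-values of 0.0014 and 0.0024. The 95% interval of Mdh2 (1.36 to 2.64) overlapped that of Suclg1 (2.56 to 3.83), and differences between members in the size of the change were not tested.

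**Figure D1:**
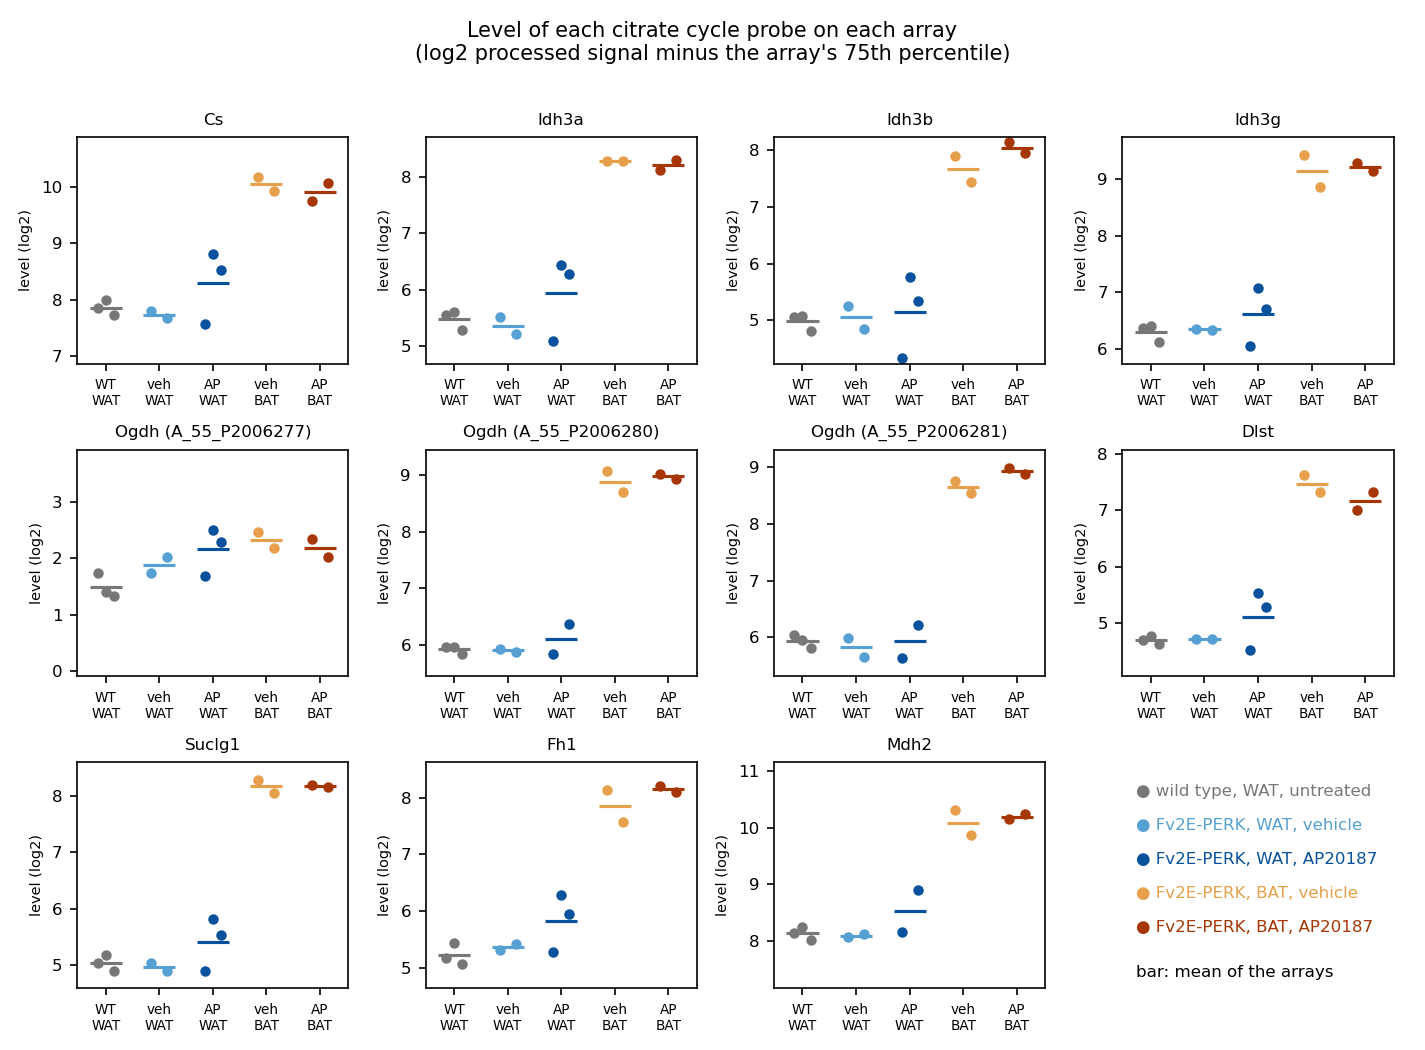
Level of each of the 11 probes (log2 of the processed signal minus the array's 75th percentile) on each of 12 arrays, by group (WT, wild type; veh, vehicle; AP, AP20187). Points are arrays, bars are group means, and every panel spans 4 log2 units. All 4 BAT arrays lie above all WAT arrays for every member, except at the dim Ogdh probe A_55_P2006277, where the tissues overlap.

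The tissue difference held beyond the vehicle groups. For all 9 members the lowest of the 4 BAT arrays lay above the highest WAT array measured. Among the members with values on all 8 WAT arrays, the gap was 0.94 (Cs) to 2.24 (Suclg1) log2 units. Ogdh (2.34) and Mdh2 (0.97) had no value on WAT AP20187 2, so their gaps are not comparable with these. The share of all features with such a separation was not counted. Of the 11 muscle markers 10 were called higher in vehicle BAT. Their mean level was 0.94 on BAT vehicle 2 and 5.22 on BAT vehicle 3. All 9 members had the higher level on BAT vehicle 2, by 0.0018 (Idh3a) to 0.57 (Fh1), after the subtracted percentiles of 6.67 and 7.08. Before that subtraction the signals of Cs, Idh3a, Ogdh, Dlst and Suclg1 were higher on BAT vehicle 3, and those of Idh3b, Idh3g, Fh1 and Mdh2 on BAT vehicle 2. The share of all features higher on BAT vehicle 2 was not counted. With BAT vehicle 3 left out, all 9 members were still called higher in BAT, with a median log2 difference of 2.90. On the BAT vehicle arrays 10 and 11 of the 11 muscle markers were well above background, and on the WAT vehicle arrays 8 and 8. Of the other marker genes tested, 5 of 8 brown adipocyte genes were called higher in vehicle BAT, as were 1 of 10 adipocyte genes, with 2 called lower, and 1 of 7 lymphocyte genes. Of the macrophage genes 3 of 7 were called lower, and of the liver genes 4 of 7. None of 7 endothelial and none of 3 epididymal genes was called. The part of these cells in the members' difference was not tested.

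**Figure D2:**
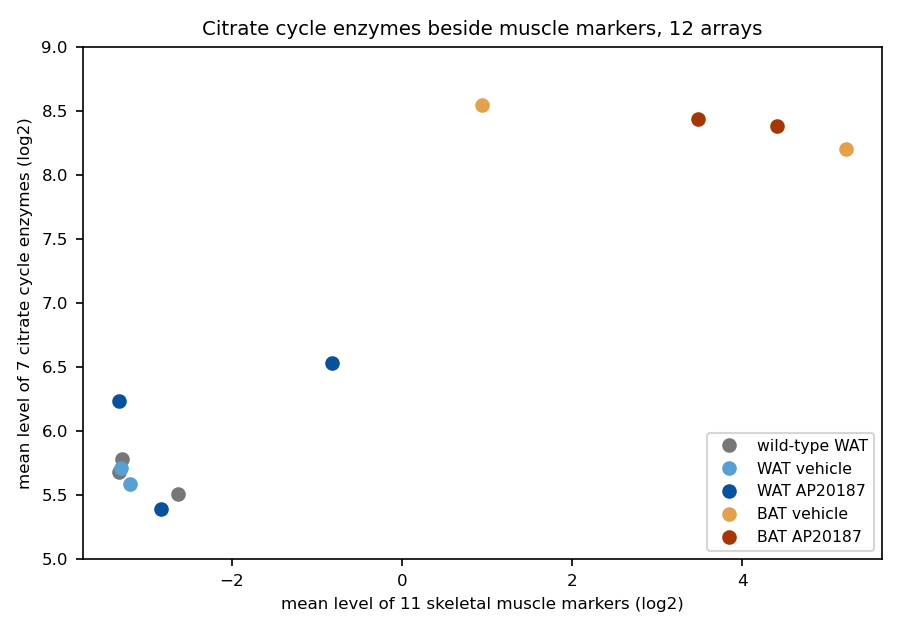
Mean level of the 7 citrate cycle enzymes measured on all 12 arrays (vertical axis, log2) against the mean level of 11 skeletal muscle markers (horizontal axis, log2), 1 point per array, coloured by group. The 4 BAT arrays span 0.94 to 5.22 in muscle markers and 8.21 to 8.55 in the enzymes, and the 8 WAT arrays lie between 5.39 and 6.53.

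The scale of the difference depended on how the arrays were brought to a common level. The 75th percentile subtracted was 8.53 and 8.65 on the WAT vehicle arrays, but 6.67 and 7.08 on the BAT vehicle arrays. Before that subtraction the Mdh2 signal was 98654 and 111950 in vehicle WAT and 129350 and 126160 in vehicle BAT. That of Suclg1 was 12103 and 12041 in vehicle WAT and 31679 and 35685 in vehicle BAT. Quantile scaling gave a median log2 difference of 2.04 for the 9 members, with 8 called; Mdh2, at 0.84 (limma adjusted p of 0.060), was the exception. Taking the 75th percentile from only those probes that every array detected lowered every difference by the same amount, to a median of 2.52 for the members and -0.14 for all features, with 9 of 9 called. The share of called features that were higher in BAT was 60.0% in the main scaling and 42.8% in that alternative.

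The other enzymes of the cycle differed in the same direction. Of 13 genes in that list 12 were tested and 10 were called higher in BAT (median log2 difference 2.12), with none called lower. The 4 with the smallest adjusted p were Mrps36, a small component of the 2-oxoglutarate dehydrogenase complex (3.28 ± 0.27, SE), Sucla2, the ATP-forming beta subunit of succinyl-CoA ligase (3.79 ± 0.36), Sdhd, an anchor subunit of succinate dehydrogenase (2.69 ± 0.27), and Idh2, the NADP+-dependent isocitrate dehydrogenase of the matrix (1.99 ± 0.25), with limma adjusted p-values of 0.00022 to 0.0013. Some further genes of this list are named here after their values were seen. Suclg2, the GTP-forming beta subunit, differed by 1.38 ± 0.34 (limma adjusted p = 0.020), less than its alternative Sucla2 at 3.79, and the interval of Suclg2 (0.61 to 2.16) lies below that of Sucla2 (2.96 to 4.63). The 2 genes not called were the cytosolic Aco1, at 0.45 (limma adjusted p = 0.17), and the cytosolic NADP+-dependent Idh1, at 0.28 (limma adjusted p = 0.67). Mdh1, the cytosolic partner of Mdh2, was called at 1.29 ± 0.37 (limma adjusted p = 0.042), with an interval (0.42 to 2.16) that overlaps that of Mdh2. Whether matrix and cytosolic counterparts differed in the size of the change was not tested.

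Genes around the cycle were less uniform. Of 11 genes of the pyruvate dehydrogenase complex and its regulators, which control the entry of pyruvate carbon, 5 were called higher in BAT and 1 lower. The kinase Pdk4, which inhibits the complex, was higher by 3.57 ± 0.55 (SE), the phosphatase Pdp2 by 1.92 ± 0.25 and the E2 component Dlat by 2.02 ± 0.37, whereas the kinase Pdk3 fell by 2.53 on the log2 scale, with limma adjusted p-values of 0.00071 (Pdk3) to 0.0058 (Dlat). Of 17 genes of entry into and exit from the cycle, 5 were called higher and 1 lower. The mitochondrial NADP+-dependent malic enzyme Me3 was at -1.02 and -1.44 in vehicle WAT and at 4.98 and 5.31 in vehicle BAT, a log2 difference of 6.38 ± 0.22 with a limma adjusted p of 5.0e-06. The 2-oxoglutarate and malate carrier Slc25a11 was higher by 1.61 ± 0.18, Pccb, a subunit of propionyl-CoA carboxylase, by 1.62 ± 0.31, and Mcee, the epimerase of the same pathway, by 1.52 ± 0.30, with limma adjusted p-values of 0.00079 to 0.0085. The gene called lower, named after its value was seen, was the NAD+-dependent malic enzyme Me2, which fell by 1.19 on the log2 scale (limma adjusted p = 0.043).

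Regulators known to act on genes of mitochondrial proteins were higher in BAT for 7 of 8 genes tested. The coactivators Ppargc1b and Ppargc1a differed by 4.39 ± 0.45 (SE) and 2.05 ± 0.37, and the orphan receptors Esrrg and Esrra by 3.78 ± 0.61 and 2.14 ± 0.31, with limma adjusted p-values of 0.00052 to 0.0056. The 1 regulator not called, named after its value was seen, was Nrf1, at 0.32 (limma adjusted p = 0.20). Of 10 respiratory chain comparators 9 were called higher, with a median log2 difference of 2.54, close to the 2.75 of the members. The 4 with the smallest adjusted p were Ndufv1 and Ndufs1 of complex I, Cox4i1 of complex IV (2.0 ± 0.21) and Cox5a (2.98 ± 0.33).

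**Figure D3:**
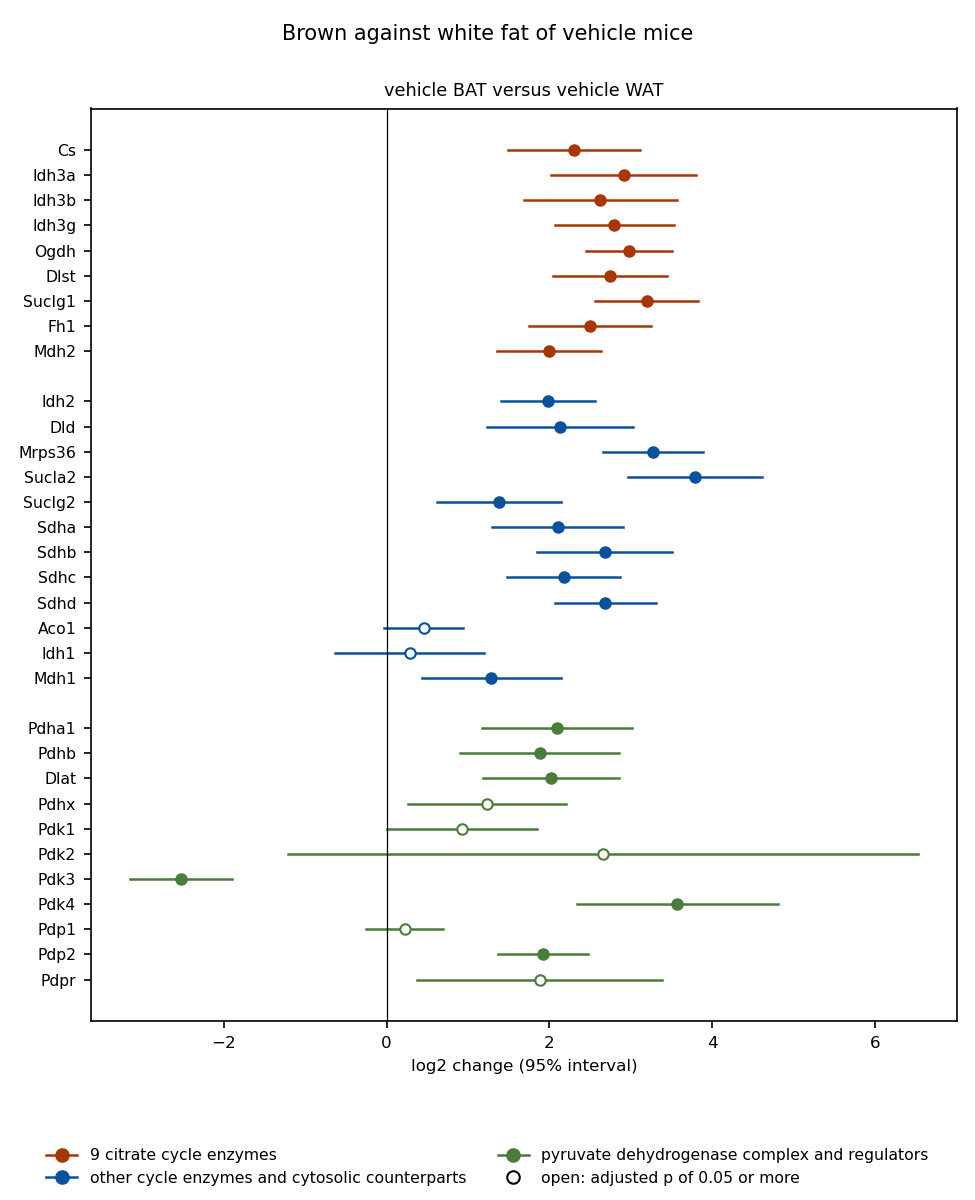
Log2 difference between vehicle BAT and vehicle WAT (2 arrays each) with its 95% interval from limma, for the 9 citrate cycle enzymes, 12 other cycle enzymes or cytosolic counterparts and 11 genes of the pyruvate dehydrogenase complex and its regulators. Filled points have an adjusted p under 0.05; the 9 enzymes lie between 2.0 and 3.19, Aco1 and Idh1 lie nearest 0 in the second block, and Pdk3 lies below 0.

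The genes whose profile over the 12 arrays was most like the mean profile of the 9 members were sought among 10571 named genes above background on all arrays. The 6 with the highest Pearson correlation were Atp5b, the beta subunit of the ATP synthase (r = 0.999), Uqcrc2 of complex III (0.998), Ndufb8 of complex I (0.997), Hadh, an enzyme of fatty acid oxidation (0.997), Coq6 of ubiquinone synthesis (0.997) and Cox6b1 of complex IV (0.997). These r values describe 12 arrays that share tissue, slide and scaling, and the gap between tissues dominates them. Over the 8 WAT arrays alone the same 6 genes had r of 0.953 (Coq6) to 0.994 (Atp5b). Their own log2 differences between vehicle BAT and vehicle WAT ran from 2.05 (Hadh) to 2.77 (Ndufb8), within the range of the members.

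In white fat, AP20187 was set against vehicle to ask how the switched-on kinase changes the transcripts of fat within 12 h. None of the 9 members passed the test, with 1.87% of all features called, and none had an unadjusted p under 0.05, which 6309 of 28060 features did. The estimates were 0.09 (Idh3b) to 0.58 (Idh3a) with a median of 0.43, above 0 for 9 of 9 in this scaling, but for only 4 of 9 with quantile scaling (median -0.02), 5 of 9 with normexp background correction followed by quantile scaling (median 0.06), 6 of 9 with a percentile taken from only those probes that every array detected (median 0.15) and 7 of 9 in the deposited value table (median 0.18). Over all features the median was 0.11, and over the 1378 other features within the members' brightness range it was 0.64, with 178 of them called higher.

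The 3 AP20187 arrays differed widely among themselves for these genes. Cs was at 7.58, 8.80 and 8.53 on the 3 AP20187 arrays. Idh3a was at 5.10, 6.44 and 6.27, and Idh3b at 4.32, 5.76 and 5.35. In each case the first array lay below both vehicle arrays and the other 2 above both. Idh3g was at 6.06, 7.08 and 6.72, Dlst at 4.52, 5.54 and 5.29, and Fh1 at 5.27, 6.29 and 5.94. Suclg1 was at 4.90, 5.81 and 5.54. Mdh2 was at 8.15 and 8.90 and Ogdh (A_55_P2006280) at 5.83 and 6.37 on the first and the third array; both were discarded on the second, where the scanner software had marked their spots as not uniform.

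On WAT AP20187 1, 2 and 3 the median over the members was -0.16, 0.84 and 0.57 against the mean of the vehicle arrays. Of 9 members measured on the first array, 7 lay below both vehicle arrays. On the second 7 of 7 measured lay above both, and on the third 9 of 9. The share of all features that lay outside both vehicle arrays on each array was not counted. For the 1378 other features within the members' brightness range the medians were 0.32, 0.80 and 0.56. The SD among the AP20187 arrays was 0.38 (Ogdh) to 0.74 (Idh3b), against 0.0086 (Dlst) to 0.29 (Idh3b) among the vehicle arrays. Mdh2, with 2 measured AP20187 arrays, was the only member whose groups did not overlap; among all features 24.9% had every AP20187 array above every vehicle array. The array with the low members was the one with the highest epididymal level (8.58), on which all epididymal markers measured (8 of 10) were well above background. The part of that tissue in the result was not tested. Without WAT AP20187 1 the median was 0.71, and 3 members were called: Cs at 0.93, Idh3a at 1.0 and Suclg1 at 0.71. With both AP20187 arrays of high epididymal level left out, the members' median against the vehicle arrays was 0.57. It rests on 1 AP20187 array, so a test there would take its spread from the other groups. Muscle markers had mean levels of -2.83, -0.82 and -3.33 on the 3 AP20187 arrays, against -3.30 and -3.19 on the vehicle arrays. Adipocyte markers ran in the same order as the members. Relative to the vehicle mean, their median was -0.64, 0.64 and 0.43 on the 3 AP20187 arrays. All features ran in this order too, with medians of -0.0028, 0.28 and 0.12, as did the other features within the members' brightness range. Fabp4 had no value on the first of these arrays and Lipe none on the second. Brown adipocyte markers, none of them called by limma, were above 0 for 7 of 8 genes (median 0.65); relative to the vehicle mean their median was 0.28, 1.64 and 0.62 on the 3 AP20187 arrays. Among them Ucp1 was at -4.15, -4.14 and -3.41 on the AP20187 arrays against -7.23 and -5.28 on the vehicle arrays (limma adjusted p = 0.080). Ucp1 was well above background on only 5 of the 12 arrays, BAT included, so WAT values this low lie near background. Cidea, the gene below 0, had a log2 change of -1.61. Macrophage markers (mean levels 0.27, 2.33 and 2.06, against 2.26 and 2.23 with vehicle) were also lowest on WAT AP20187 1. So were endothelial markers, with medians relative to the vehicle mean of -1.17, 0.04 and -0.13, although Kdr had no value on that array. Liver markers (mean levels 2.16, 0.21 and 0.53) lay within the range of the vehicle arrays (0.46 and 4.32) on the first and the third array. The part of these cells in the members' values was not tested.

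Slide 2 held all AP20187 arrays and 1 of the 2 vehicle arrays. Within slide 2, against WAT vehicle 2 alone, the median of the members was 0.40, with 9 of 9 above 0 and none called. A fit with slide as a fixed block makes the same comparison by construction.

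**Figure D4:**
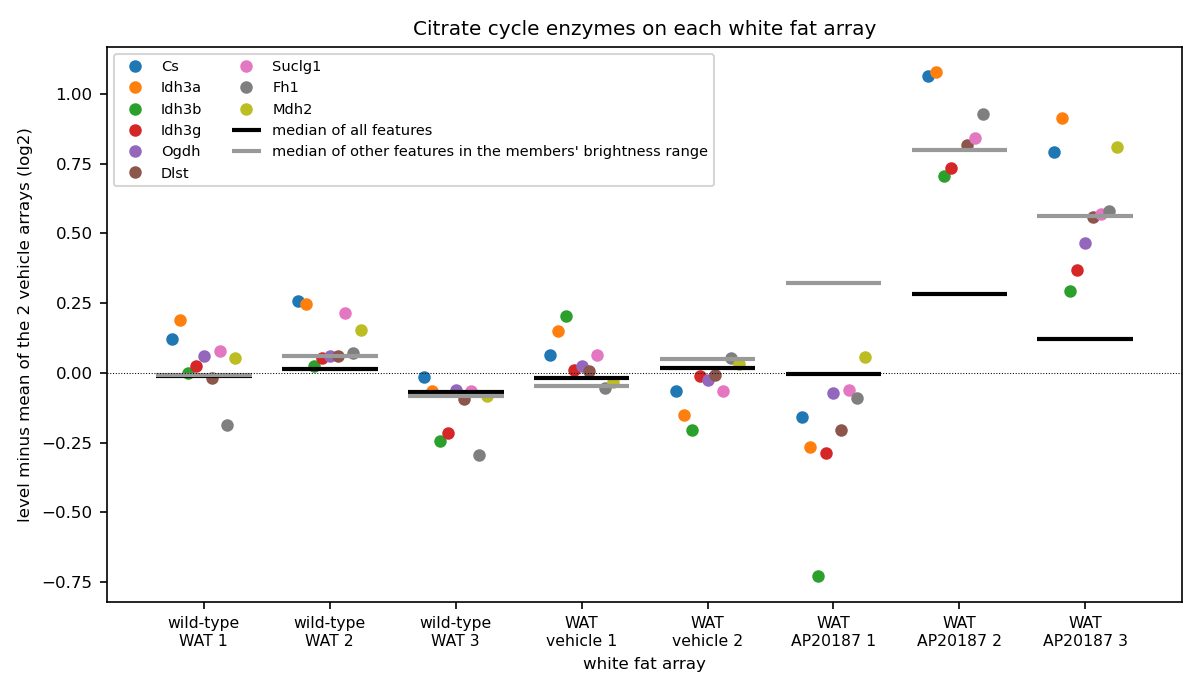
Level of each of the 9 enzymes on each of the 8 WAT arrays minus the mean of the 2 WAT vehicle arrays (log2). Black bars are the median of all features and grey bars the median of other features in the members' brightness range; on WAT AP20187 2 and 3 the members' medians are 0.84 and 0.57 beside grey bars of 0.80 and 0.56, and on WAT AP20187 1 the members' median is -0.16 beside a grey bar of 0.32.

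The other lists around the cycle were also without a called gene in this comparison, by limma over all features. In the list of other cycle enzymes 12 of 12 tested were above 0 and none had an unadjusted p under 0.05, with the largest values for Mdh1 (0.69 ± 0.37, SE) and Sdhb (0.55 ± 0.33). Of the pyruvate dehydrogenase list 2 of 11 had an unadjusted p under 0.05, with the largest values for Pdk2 (-1.39 ± 1.56), at 3.62, -2.87 and 2.97 on the 3 AP20187 arrays, and Pdk1 (1.11 ± 0.40), measured on 2 of them. Of the entry and exit list 3 of 17 did, with the largest values for Slc25a10, the dicarboxylate carrier (-1.63 ± 2.22), at -5.02, 3.97 and 3.68 on the AP20187 arrays and 2.57 and 2.44 with vehicle, and Pck1, the cytosolic phosphoenolpyruvate carboxykinase (-1.45 ± 0.38). Of the regulators 1 of 8 did, with the largest values for Ppara (-1.56 ± 0.90), at 0.84, -2.32 and 0.94 on the AP20187 arrays, and Esrrg (1.08 ± 0.56). Of the respiratory chain comparators 4 of 10 did, with the largest values for Uqcrc1 (-1.79 ± 1.56) and Ndufv1 (0.80 ± 0.24). Uqcrc1 was at 4.49, -1.23 and 5.39 on the 3 AP20187 arrays. For Pdk2, Ppara and Uqcrc1 the second array lay far below the others, and for Slc25a10 the first.

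In brown fat the same comparison gave no called member, with 0.00356% of all features called (1 of 28060) and 2053 features under an unadjusted p of 0.05, none of them a member. The median of the 9 was 0.08, against -0.04 over all features, with 6 of 9 above 0. The highest was Idh3b, at 7.91 and 7.45 with vehicle and 8.14 and 7.95 with AP20187, a log2 change of 0.37 ± 0.41 (SE). Idh3b was the only member with both AP20187 arrays above both vehicle arrays, which 15.5% of all features had. The lowest was Dlst, at 7.62 and 7.323 with vehicle and 7.0 and 7.317 with AP20187, a change of -0.31 ± 0.31. Both AP20187 arrays lay below both vehicle arrays, though the nearest of them were almost equal. The share of all features with such a fall was not counted. The limma adjusted p-values of the 9 were 0.94 to 1.0.

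For the other 7 members the levels with AP20187 lay among or beside those with vehicle. Cs was at 9.74 and 10.07 with AP20187, Idh3a at 8.11 and 8.30, Idh3g at 9.29 and 9.16, and Suclg1 at 8.18 and 8.15. Fh1 was at 8.20 and 8.11, Mdh2 at 10.15 and 10.24, and Ogdh (A_55_P2006280) at 9.02 and 8.93. For these 7 the AP20187 arrays overlapped the vehicle arrays. The 95% intervals of the 9 changes reached from -1.02 (Dlst) to 1.31 (Idh3b), so the data did not exclude a rise of up to 2.48-fold for Idh3b. Without BAT vehicle 3 the median of the members turned to -0.11, and without BAT vehicle 2 it was 0.27, with none called in either case. Muscle markers were above 0 for 11 of 11 in this comparison, with a median of 0.91 and none called; their part in the members' values was not tested.

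The stress response readouts give the setting of these values. In BAT all 8 readouts had estimates above 0 (median 1.45) and 6 had an unadjusted p under 0.05, but none was called by limma. The pseudokinase gene Trib3 went from 3.0 and 2.56 with vehicle to 6.47 and 8.20 with AP20187 (4.55 ± 0.62, SE; limma adjusted p = 0.19). Chac1, which degrades glutathione, changed by 3.40 ± 0.60 (limma adjusted p = 0.23). In WAT 6 of 8 readouts were above 0 (median 0.68), with the largest values for Fgf21 (4.35 ± 1.12; limma adjusted p = 0.072) and Atf4 (0.90 ± 0.39).

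The lists around the cycle had no called gene in BAT either. The largest values were -0.52 for Sdhc and -0.44 for Sdhd among other cycle enzymes, 0.92 for Pdk4 and -0.63 for Pdhx in the pyruvate dehydrogenase list, and -1.74 for Acly and 1.38 for Pck1 in the entry and exit list. Nrf1 (0.53) and Tfam (0.38) led the regulators, and Cyc1 (-0.31) and Ndufv1 (0.14) the respiratory chain comparators. An unadjusted p under 0.05 was reached by Pck1 and Nrf1 among these lists and by no other gene.

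**Figure D5:**
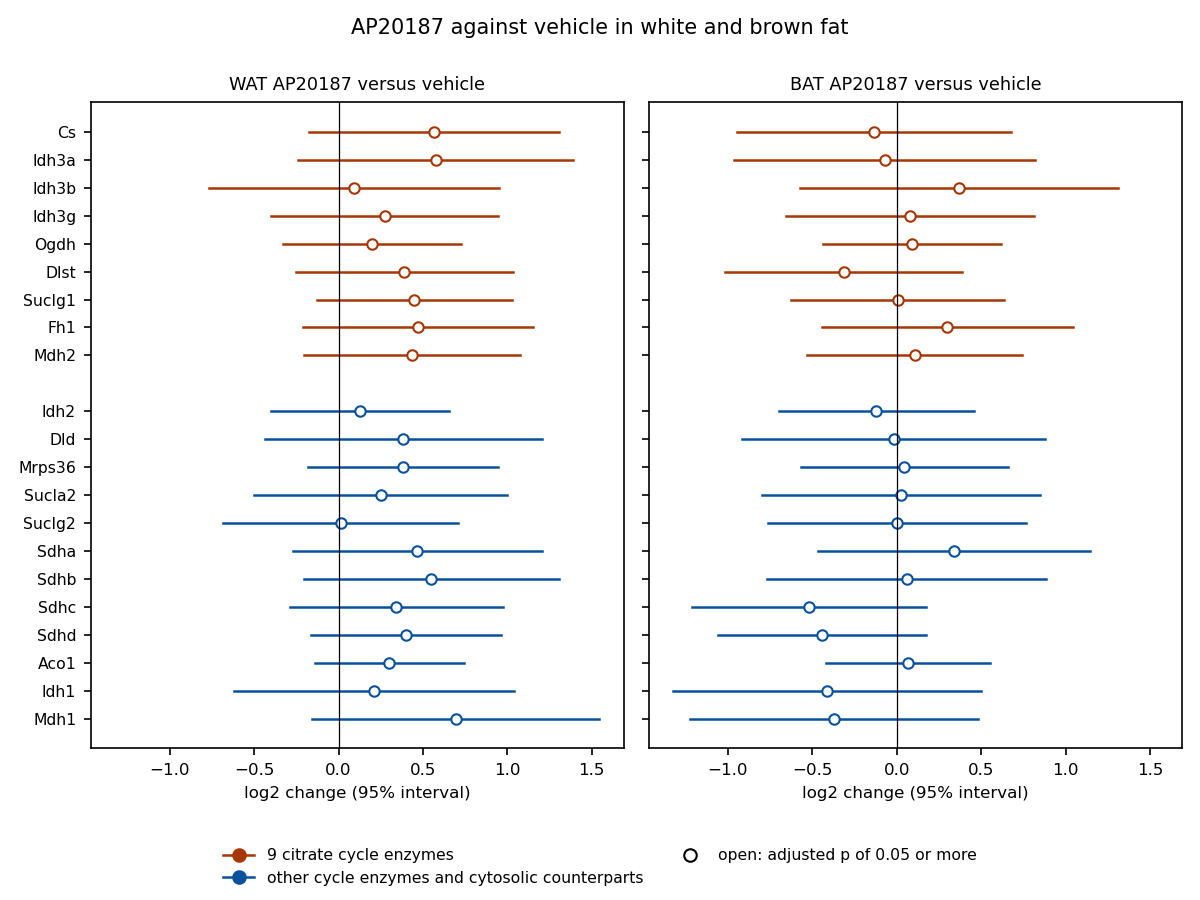
Log2 change with AP20187 against vehicle and its 95% interval from limma, in WAT (left, 3 against 2 arrays) and BAT (right, 2 against 2 arrays), for the 9 citrate cycle enzymes and 12 other cycle enzymes or cytosolic counterparts. All points are open (adjusted p of 0.05 or more); every interval of the 9 enzymes spans 0 in both tissues.

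Whether the response differed between the tissues was tested as WAT change minus BAT change. No member was called, none had an unadjusted p under 0.05, and 0% of all features were called, with 4608 of 28060 under an unadjusted p of 0.05. The differences were -0.28 (Idh3b) to 0.70 (Dlst) with a median of 0.33, above 0 for 8 of 9, against a median of 0.13 over all features. With quantile scaling the median of the members was -0.19 and 4 of 9 were above 0. The widest interval was that of Idh3b, from -1.55 to 1.0. Among the lists around the cycle the largest values were 1.07 for Mdh1, -1.84 for Pdk4, 3.12 for Acly, -2.83 for Pck1, -1.76 for Ppara, 1.32 for Esrra and -1.82 for Uqcrc1, none of them called by limma.

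Vehicle-treated transgenic WAT was set against untreated wild-type WAT, a comparison that joins the transgene's presence with the injection. No member was called, where 0.0428% of all features were (12 of 28060), and none had an unadjusted p under 0.05, which 1488 features had. The estimates were -0.12 (Idh3a) to 0.14 (Fh1) with a median of -0.02, against 0.02 over all features. Liver markers were above 0 for 7 of 7 genes (median 2.60), with none called. Their mean level was 4.32 on WAT vehicle 2 and 0.46 on WAT vehicle 1, against -0.74 to 1.22 on the wild-type arrays. The part of that tissue in the members' values was not tested. Wild-type levels were 7.86, 7.99 and 7.72 for Cs, 5.55, 5.61 and 5.30 for Idh3a, and 5.05, 5.08 and 4.81 for Idh3b. The vehicle arrays fell among or beside these values. Idh3g was at 6.37, 6.40 and 6.13, Dlst at 4.71, 4.79 and 4.63, and Suclg1 at 5.04, 5.18 and 4.90. Fh1 was at 5.17, 5.43 and 5.06, Mdh2 at 8.14, 8.24 and 8.01, and Ogdh (A_55_P2006280) at 5.96, 5.97 and 5.84. The groups overlapped for all 9 members. Among all features 19.4% had both vehicle arrays above all wild-type arrays, and the share with both below was not counted.

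The 95% intervals of this comparison reached from -0.94 (Idh3a) to 0.93 (Idh3b), so changes of up to 1.91-fold upward were not excluded. Slide 1 held the wild-type arrays and 1 vehicle array. Within slide 1 the median of the members was 0.02, with none called. In the lists around the cycle the largest values were 0.25 for Idh2, -0.70 for Pdp2, -0.64 for Slc25a10, -0.85 for Esrrg and 0.19 for Atp5a1, none of them called.

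Over the 5 groups, both BAT groups stood above all 3 WAT groups for each of the 9 members, with no overlap of the arrays measured. By limma no member was called different between vehicle and AP20187 groups of the same tissue, or between wild-type and vehicle WAT. Wild-type WAT and WAT given AP20187 were not compared. The share of all features with such a separation of the tissues was not counted.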

How the data were processed

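The arrays were one-colour Agilent slides (design 028005) that carried Cy3-labelled total RNA. Per the file headers, the authors deposited spot intensity values from Agilent Feature Extraction 10.7.1.1, corrected for background and spatial trend, beside flags for outliers and detection. The authors' deposited value table holds the same intensity values (Pearson r of the log2 values with the processed signal of at least 0.9998 on every array, median log2 ratio 0), linear and uncentred, with 14.9% to 40.4% of probes blank and column medians of 32.8 to 105.0; why cells are blank is not given in the sources used here. It served as an alternative.

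Spots flagged as outliers (1313 values of 13 arrays) were set to missing. Of 55681 non-control probes, 26050 matched 1 gene through RefSeq (19748 genes), 0 matched several and 29631 had no name here. Levels are log2 processed signal minus the array's 75th percentile. A probe was kept if all arrays of some group had it well above background (32630 probes), with 1 feature per gene, the probe of the highest mean level, and each unnamed probe by itself, which left 28060 features. Python 3.11.15, R 4.3.3 and limma 3.58.1 (lmFit, eBayes) were used, with 5 group means over 12 arrays, Benjamini-Hochberg adjustment and a threshold of 0.05. The fit was tested on simulated data. The number of arrays, 2 or 3 a group, limits the precision.

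The members and all gene lists were chosen with earlier results of these data known. Named were all members with every probe, from each list the genes called (at most 4 by smallest adjusted p), otherwise the 2 of largest absolute change, and the 6 genes most like the members' mean profile. A gene of the list of other cycle enzymes is not reported here. Marker lists of 8 cell types or tissues were measured beside them. Replicate numbers in the titles were not used to pair the arrays in the main fit. Correlations of deviations between same-numbered arrays were -0.21 to 0.09. With so few arrays in a group, these values cannot show whether same-numbered arrays share animals. The alternatives covered scaling, background correction, dim-probe filters, probe summaries, slide, the replicate block and each array left out.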

Additional observations from a re-analysis of the deposited data

How the results depend on the processing

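In vehicle BAT against vehicle WAT every alternative kept all 9 members above 0, and 221 of 224 member values stayed past the threshold. The exceptions were Mdh2 with quantile scaling, alone (0.84) or after normexp (0.92), and Ogdh under the stricter filter (0.45), where its dim probe stood for the gene; that filter left 7 members called, since Mdh2 was not tested there. The median of the members minus that of all features was 2.66 as reported, 2.03 with quantile scaling, 1.97 with quantile scaling after normexp, 2.55 in the deposited value table, 2.30 without a filter, 2.47 with the stricter filter, 2.55 with the mean of a gene's probes and 2.58 with the replicate block, and 2.45 to 2.76 with 1 array left out. Slide could not be fitted as a fixed block here, because it is aliased with tissue. The count of features called (6117) became 16400 without a filter, 4014 with the replicate block and 3123 to 8661 with 1 array left out, the lowest without BAT vehicle 2 and the highest without WAT AP20187 1.

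In WAT with AP20187 none of the 233 member values was called except 3 without WAT AP20187 replicate 1 (0 to 3 members with 1 array left out); the values of 19 changed sign with neither called. The 525 features called became 9 (quantile), 8 (normexp, then quantile), 12 (deposited table), 9685 (no filter), 1382 (stricter filter), 9 (mean of probes), 8 (every probe), 0 (only the compared arrays), 22 (slide as a fixed block), 1635 (slide as a random block), 1 (replicate block) and 0 to 2273 (1 array left out: 2273 without WAT AP20187 1, 521 without WAT AP20187 3, and 214 or fewer without any other array); where 0 were called, at least 3707 had an unadjusted p under 0.05. Of those called, 66.9% were higher as reported, 22.2% with quantile scaling and 2.70% with the percentile of probes that every array detected.

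In BAT with AP20187 no alternative called a member. The 1 feature called became 5 (quantile), 2 (stricter filter), 0 in each of the deposited table, no filter, only the compared arrays, slide as a fixed block, the replicate block and both epididymal WAT arrays left out, and 0 to 26 with 1 array left out, the highest without BAT vehicle 3. The median minus that of all features (0.12) was 0.0027 without a filter, -0.0018 with the stricter filter and -0.052 to 0.28 with 1 array left out. For the difference between the responses the 0 features became 6 (quantile), 2 (normexp, then quantile), 22 (percentile of probes that every array detected), 491 (both epididymal WAT arrays left out, an alternative chosen after seeing the data) and 0 to 277 (1 array left out, the highest without WAT AP20187 1), and the median minus that of all features (0.20) was -0.28 with quantile scaling and -0.29 with quantile scaling after normexp, with no member called. For vehicle against wild type the 12 features became 3 (quantile), 3 (normexp, then quantile), 0 (deposited table), 37 (no filter), 0 (stricter filter), 4 (only the compared arrays), 100 (slide as a fixed block), 3 (replicate block), 27 (both epididymal arrays left out) and 4 to 100 (1 array left out, the highest without WAT vehicle 2), again with no member called. The replicate block, used although it is not known whether the numbers pair the arrays, changed no member's call. Leaving out spots in areas of weak signal, also chosen after seeing the data, changed none either. The causes of these shifts were not tested.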

Other observations

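The array left out of every group, titled as brown fat and named as white fat in its source, had the members at 4.77 to 8.13. Their differences from the mean of the WAT vehicle arrays were -0.20 to 0.12, with Cs at 7.86, Idh3a at 5.16 and Mdh2 at 8.13. Its Ucp1 level was -4.57.

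The 2 Ogdh spots and the Mdh2 spot missing on WAT AP20187 2 carry the scanner software's flag for a non-uniform spot. On that array 2.97% of spots lay in areas where the signal was over 1 log2 unit below that of the other WAT arrays, against 1.02% on WAT AP20187 3 and 0.0017% on WAT AP20187 1. The surroundings of the Mdh2 spot were lower by a median of 2.05 log2 units there, and those of Ogdh A_55_P2006280 by 1.06, whereas those of Ogdh A_55_P2006281 deviated by -0.01.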
